A study of Mus musculus with 65 samples.

Results

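The genes described here are 6 mouse genes of proteins that tie actin filaments together or bind along them: the plastins Lcp1, Pls1 and Pls3, the fascins Fscn1 and Fscn2, and Xirp2. They are 6 of the 55292 genes listed in the table of counts, and they were chosen from an earlier look at their levels in these same cells, so their levels and their differences between genotypes are a description and no test was made on them. All 6 were found in the table by symbol. The cells are 65 outer hair cells (OHCs), the sensory cells that amplify sound, each picked by hand from the cochlea of mice at postnatal day 10 and sequenced alone. The 17 CKO cells came from mice of the genotype Atoh1Cre/+; Casz1flox/flox; Slc26a5FlpO/+; Rosa26FSF-H2BEGFP/+, and the 48 WT cells from mice carrying Slc26a5FlpO/+; Rosa26FSF-H2BEGFP/+ alone. Both groups thus carried the FlpO driver at the prestin gene and the nuclear green reporter by which OHCs could be picked, while Cre, expressed under Atoh1, was present in the CKO group alone; effects of Cre and of the floxed Casz1 alleles cannot be told apart. No label ties a cell to an animal, so each genotype counts as 1 sample: no p-value is given. The printed 95% intervals of levels and ratios cover the counting error of reads only, and those of shares of cells take the cells as independent draws; neither covers differences between animals, and neither is a comparison of the genotypes.

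A hair cell carries on its upper surface a bundle of stereocilia, stiff rods filled with parallel actin filaments that are rooted in a dense actin plate, the cuticular plate. Plastins, also called fimbrins, and fascins are cross-linkers that hold such filaments side by side, and together with espins they give stereocilia their stiffness and width. Pls1 (plastin 1) is a main cross-linker of the mature bundle, Lcp1 (plastin 2, or L-plastin) is best known from white blood cells, and Pls3 (plastin 3, or T-plastin) is found in many solid tissues. Fscn1 is the widespread fascin of filopodia, and Fscn2 is the fascin of the retina and of hair cell stereocilia, where it is needed for hearing to last in mice. Xirp2, named for its Xin repeats, binds actin in striated muscle and in the hair cell's stereocilia and cuticular plate, and mice without it lose stereocilia.

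The start regions of Lcp1 and Xirp2 are shown because these are the 2 members detected in most cells whose summed levels differed by more than 2-fold between the genotypes. Each run is 300 bases from RefSeq on GRCm38.p6, from 250 bases before to 50 after an annotated transcription start, read 5′ to 3′ on the plus strand, on which both genes lie. Lcp1 has 2 such starts, at chr14:75130873-75131172 and chr14:75136175-75136474, and Xirp2 has 1, at chr2:67445752-67446051. Capitals mark the GC box GGGCGG, read on either strand, in Lcp1, and the AP-1 form TGANTCA and the MEF2 form CTAAAAATA, each searched on both strands, in Xirp2. None of the capital stretches overlap.
Lcp1 start region 1: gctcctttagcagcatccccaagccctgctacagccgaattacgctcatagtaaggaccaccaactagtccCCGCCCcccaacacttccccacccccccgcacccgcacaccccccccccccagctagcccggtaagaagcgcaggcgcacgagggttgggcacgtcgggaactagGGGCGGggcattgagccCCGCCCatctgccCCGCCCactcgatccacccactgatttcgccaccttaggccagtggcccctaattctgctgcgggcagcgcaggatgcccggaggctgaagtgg
Lcp1 start region 2: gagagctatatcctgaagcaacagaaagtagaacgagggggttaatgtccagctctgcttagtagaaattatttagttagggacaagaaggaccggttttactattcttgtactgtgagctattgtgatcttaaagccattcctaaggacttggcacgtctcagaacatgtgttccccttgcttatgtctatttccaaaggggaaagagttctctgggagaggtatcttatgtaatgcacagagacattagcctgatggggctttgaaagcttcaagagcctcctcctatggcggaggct
Xirp2 start region: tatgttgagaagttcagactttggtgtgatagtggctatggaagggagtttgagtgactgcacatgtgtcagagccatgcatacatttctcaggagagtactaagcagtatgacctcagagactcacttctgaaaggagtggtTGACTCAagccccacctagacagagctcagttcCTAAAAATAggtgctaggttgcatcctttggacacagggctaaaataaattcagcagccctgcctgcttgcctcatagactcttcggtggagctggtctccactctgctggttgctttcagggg

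The first Lcp1 region held 4 GC boxes, whose first bases lay 179, 74, 57 and 44 bases before the start, and the second held none of the 3 motifs. The Xirp2 region held the AP-1 form 107 bases and the MEF2 form 74 bases before the start. The 3 motifs were picked after these sequences had been read. Of 32851 RefSeq promoters of the same length, 35.7% held GGGCGG, 7.81% held TGANTCA and 0.517% held CTAAAAATA. Such a match is a description of letters and not evidence of a binding site. Among the other members, the Fscn2 region held 2 GC boxes, and those of Pls1 and Fscn1 held none of the 3 motifs. Of the 3 Pls3 start regions, 2 overlap and share the same GC box, and the other held none.

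The CKO cells held 199812603 counts in all, with 8239671 to 15320549 per cell, and the WT cells 547934202, with 7458126 to 17107710 per cell. A median of 7417 genes per CKO cell and 7586 genes per WT cell had a count. The OHC label was checked against 5 OHC genes (Slc26a5, Ocm, Ikzf2, Strip2 and Lbh): each had counts in all 17 CKO and all 48 WT cells, and their summed level, in counts per 1000000 counts (CPM), ranged over 32779 to 90541 CPM in CKO cells and 14611 to 64268 CPM in WT cells. Casz1 itself, counted over the whole gene, was at 46.2 CPM in CKO cells and 53.3 CPM in WT cells, with a count in 15 of 17 and 42 of 48 cells; the labels do not say which part is floxed, so this level does not check the deletion. The cells also differed in ways that the genotype labels do not name. Mitochondrially encoded genes took a median of 4.76% of the counts in CKO cells and 6.52% in WT cells. Ratios with a total that leaves out these and ribosomal protein genes are given further below, and any other part of this was not tested. By their counts of Xist and of 4 Y-linked genes, 15 of the 17 CKO cells had the Xist pattern and none the Y pattern, against 9 Xist and 37 Y among the 48 WT cells. An earlier look at these data set WT cells 1 to 11, 12 to 45 and 46 to 48 apart. The labels name no batch, and values against each of these runs stand beside the results below. Pattern and run overlapped in WT cells. Of the 9 Xist-pattern WT cells 8 lay in cells 1 to 11, while 31 of the 34 cells 12 to 45 and all 3 cells 46 to 48 had the Y pattern. Comparisons of Xist-pattern cells and those against WT cells 1 to 11 thus share most WT cells and are not separate checks.

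Of the 6 genes, Lcp1 and Xirp2 were at more than 2-fold higher summed levels in CKO cells, Pls1 and Fscn2 were within 2-fold, Pls3 had counts only in 2 CKO cells, and Fscn1 had counts only in 3 WT cells. The term measured is used for genes that reached 5 CPM in the higher of both groups, as did 10842 genes and 5 of the 6 members. Pls3 reached it only through the CKO group, and Fscn1 did not reach it. Of the 5, 3 were higher by at least 2-fold in CKO cells (Lcp1, Xirp2 and Pls3) and 0 were lower by that much, with 15.1% of all measured genes higher and 14.5% lower by at least 2-fold. Because the members were picked with these ratios in view, nothing is read from the count.

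Lcp1 lies at chr14:75131101-75230842 on the plus strand (GRCm38). In single cells it stood at 0.119 CPM at the lowest, 597 at the median and 932 at the highest in CKO cells, and at 0, 215 and 1029.5 CPM in WT cells. The ranges overlapped, but 16 of 17 CKO cells lay above the WT median while 4 of 48 WT cells lay above the CKO median. Summed over cells, Lcp1 was at 606 CPM in CKO cells (603 to 610) and 246 CPM in WT cells (245 to 247), a log2 ratio of 1.30 (1.29 to 1.31), or 2.47-fold. When every CKO cell was paired with every WT cell, the CKO cell had the higher value in 697 of the 816 pairs, or 85.4%. Of all measured genes, 11.2% had a ratio at least as high.

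The SD of Lcp1 over cells was 242 CPM in CKO cells around a mean of 602 CPM, and 221 CPM in WT cells around a mean of 263 CPM. Relative to the mean the spread was 40.3% in CKO cells and 84.2% in WT cells. CKO cell 12 stood apart with a single Lcp1 count, and the next lowest CKO cell had 255 CPM. In WT cells the low values formed a tail: 5 of 48 had less than 10 CPM, among them 1 cell with no count, against 1 of 17 CKO cells. At 100 CPM or more were 16 of 17 CKO cells (94.1%, exact interval 71.3 to 99.9%) and 38 of 48 WT cells (79.2%, 65.01 to 89.5%). The highest single value of all belonged to WT cell 19.

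**Figure D1:**
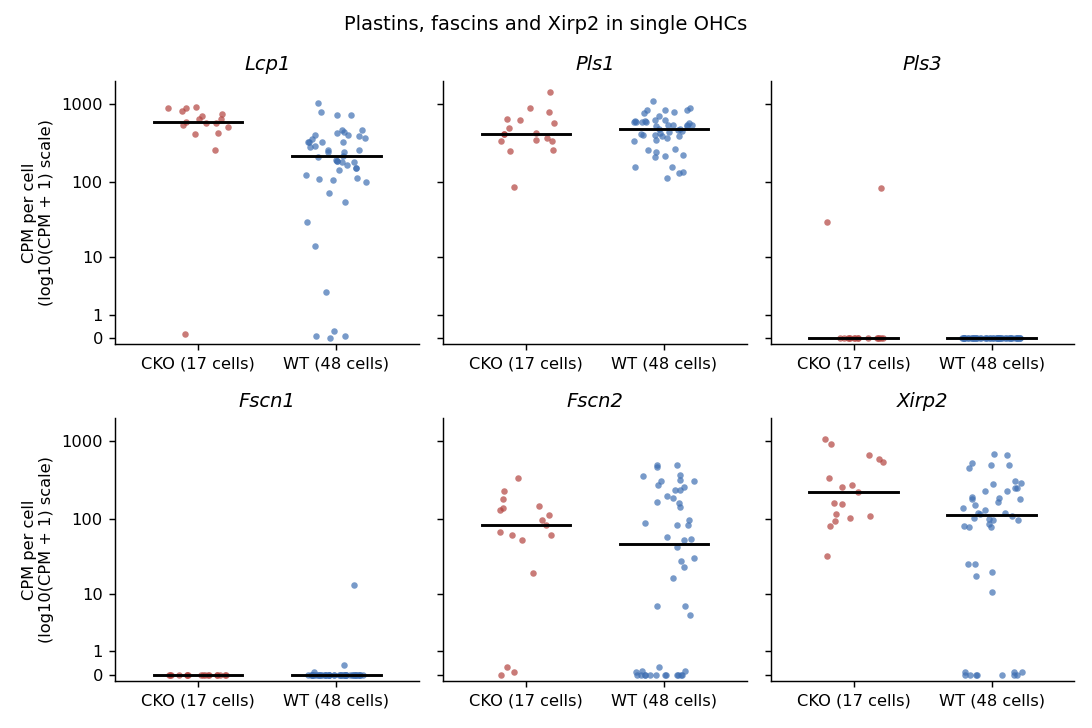
CPM of each member in every cell, on a log10(CPM + 1) scale, with CKO cells (red) left of WT cells (blue); each point is 1 cell and the black line is the group median. Lcp1 points of 16 CKO cells sit above the WT median of 215 CPM, Pls1 overlaps throughout, Fscn2 and Xirp2 have WT cells at 0, and Pls3 and Fscn1 have counts in 2 CKO and 3 WT cells.

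Since Lcp1 is the plastin of white blood cells, 14 leukocyte and macrophage genes were read in the same cells. In the CKO group 9 of the 14 had no count and in the WT group 6, with Cx3cr1, C1qa, Fcer1g, Cd52, Lyz2 and Itgam at 0 in both. Ptprc, the pan-leukocyte gene CD45, had counts in 1 cell of each group, 1 count in the CKO cell and 2 in the WT cell. Laptm5, a lysosomal membrane gene, was the highest of the 14 at 395 CPM in CKO cells and 260 CPM in WT cells, with counts in 16 of 17 and 42 of 48 cells. C1qb, a complement gene of macrophages, was next at 3.03 CPM in CKO cells, from 1 of 17 cells, and 18.8 CPM in WT cells, from 13 of 48. All 14 genes summed to a median of 346 CPM in CKO cells and 194 CPM in WT cells, and to 0 in 1 CKO cell and 4 WT cells. Without Laptm5 the other 13 genes summed to 0 in 14 of 17 CKO cells and 29 of 48 WT cells, and reached at most 73.4 CPM in a CKO cell and 188 CPM in a WT cell.

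Against other choices of cells, Lcp1 kept its direction. Among Xist-pattern cells it was at 651 CPM in 15 CKO cells and 202 CPM in 9 WT cells. This is a log2 ratio of 1.69, with the CKO cell higher in 97.0% of pairs. Of these 9 WT cells, 8 are also among WT cells 1 to 11. Against WT cells 1 to 11, 12 to 45 and 46 to 48 alone the log2 ratio was 1.61, 1.15 and 1.68, with WT levels of 198, 273 and 189 CPM. It was past 2-fold under all 13 other choices of cells or scaling and when any of the 65 cells was left out, over which the log2 ratio ran from 1.25 to 1.38. Part of the Lcp1 exons overlaps Gm15628 and Gm15629 on the opposite strand, and these had 0 and 126 counts in CKO cells and 0 and 4 in WT cells. Of the 50-base stretches of its exons, 8.17% also occur in another gene.

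Pls1 (chr9:95752642-95845311, minus strand) was present in every cell at a similar level in both groups. Single cells ranged from 85.1 through a median of 421 to 1441 CPM in CKO cells, and from 114 through 479.7 to 1114 CPM in WT cells. Its coefficient of variation was 61.0% in CKO cells, above the 40.3% of Lcp1, and 46.4% in WT cells. It was the only member with at least 10 CPM in every cell of both groups, and the ranges overlapped almost wholly, with 7 of 17 CKO cells above the WT median and 29 of 48 WT cells above the CKO median. The summed levels were 500.1 CPM in CKO cells (497 to 503) and 485 CPM in WT cells (483 to 487), a log2 ratio of 0.04 (0.03 to 0.05). The CKO cell was higher in 48.8% of pairs. The sign was not fixed: it turned in 4 of 13 other settings, which spanned -0.23 to 0.08, and when CKO cell 8, 13 or 14 was left out. The top value of all was CKO cell 13, and the lowest was CKO cell 7.

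Since Lcp1 and Pls1 code for proteins of the same build, their levels were set side by side per kilobase of the longest coding transcript, which is 3.841 kb for Lcp1 and 3.704 kb for Pls1. Lcp1 was at 158 CPM per kb in CKO cells and 64.0 CPM per kb in WT cells, and Pls1 at 135 CPM per kb in CKO cells and 131 CPM per kb in WT cells. Per length Lcp1 thus made up 53.5% of the plastin total in CKO cells and 32.8% in WT cells. In single cells the Lcp1 share had a median of 57.1% in CKO cells (range 0.0439 to 91.1%) and 31.4% in WT cells (0 to 66.5%). Lcp1 was above Pls1 in 12 of 17 CKO cells and 11 of 48 WT cells. CKO cell 7, lowest in Pls1, had the highest Lcp1 share, and CKO cell 12 had the lowest of its group.

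The difference in share went the same way among Xist-pattern cells, at 56.4% in CKO cells and 29.2% in WT cells. WT cells 1 to 11, 12 to 45 and 46 to 48 had Lcp1 shares of 28.8%, 35.4% and 23.7%. The absolute shares depend on the length used. With the union of all annotated exons, which is 9.504 kb for Lcp1 and 3.89 kb for Pls1, the Lcp1 share was 32.9% in CKO cells and 17.2% in WT cells, and Lcp1 was above Pls1 in 2 CKO cells and 0 WT cells. So which plastin leads in CKO cells turns with the length used. The order of the groups could hardly turn, since the same lengths were applied to both, so nothing is read from it.

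**Figure D2:**
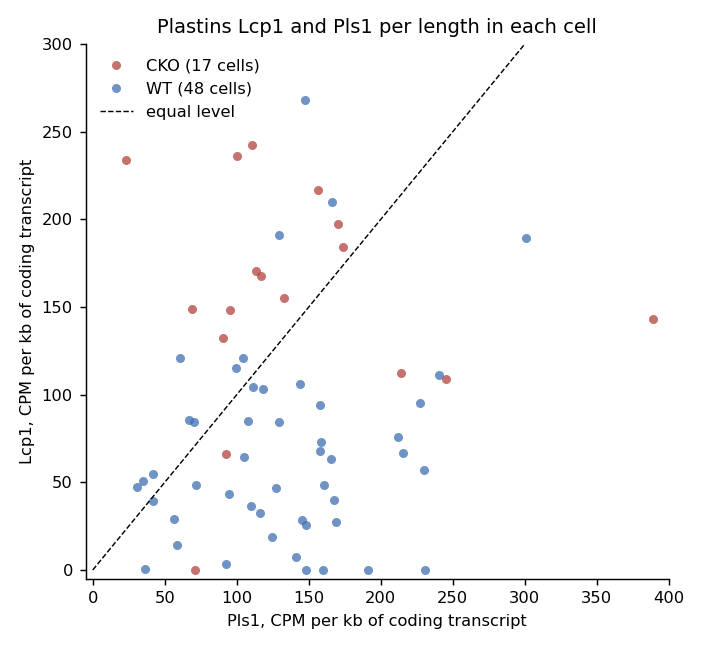
Lcp1 against Pls1 in each cell, in CPM per kb of the longest coding transcript, for 17 CKO cells (red) and 48 WT cells (blue), with a dashed line at equal level. On this length 12 CKO and 11 WT cells lie above the line.

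Pls3 (chrX:75785654-75875182, minus strand) was found in 2 cells. CKO cell 1 had 1214 counts (83.4 CPM) and CKO cell 17 had 354 counts (30.0 CPM). The other 15 CKO cells and all 48 WT cells had none, and 0 of 48 WT cells allows a share of cells with a count of up to 7.40%. The summed level was 7.85 CPM in CKO cells and 0 in WT cells, at least 1433-fold higher when WT cells are set to 3 counts over the group. All of this difference rests on 2 cells, and without CKO cell 1 the gene falls under 5 CPM.

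Since Pls3 is found in many tissues, markers of other cells were read in the same libraries. In CKO cell 1 the 8 supporting cell genes summed to 183 CPM, the highest of the 17 CKO cells, from 2 of the 8 genes. In CKO cell 17 the sum was 11.7 CPM, with 4 CKO cells higher. Over all CKO cells Fgfr3 had 2437 counts in 6 cells, Gjb2 1595 in 1, Gjb6 260 in 2 and Hes5 222 in 3. Lfng had 6 counts and Slc1a3 had 1, each in 1 cell, and Sox2 and Prox1 had none. Supporting cell sums had a median of 0.493 CPM in CKO cells and 18.7 CPM in WT cells, with a highest WT value of 402 CPM. Fibroblast genes summed to 0.0687 CPM in CKO cell 1 and 0.593 CPM in CKO cell 17. Neuron genes summed to 227 CPM in CKO cell 1, with 13 CKO cells higher, and to 1009 CPM in CKO cell 17, with 2 higher. The 13 leukocyte genes without Laptm5 summed to 0 in CKO cell 1 and 13.8 CPM in CKO cell 17, with 1 CKO cell higher than cell 17. Whether RNA of other cells contributed to the Pls3 counts was not tested.

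Fscn1 (chr5:142960343-142973185, plus strand) was close to absent. No CKO cell had a count, and 0 of 17 allows a share of up to 19.5%. WT cell 6 had 176 counts (13.4 CPM), WT cell 2 had 5 and WT cell 7 had 1, and the other 45 WT cells had none. The summed level was 0 in CKO cells and 0.332 CPM in WT cells, at least 22.1-fold lower in CKO cells if that group is given 3 counts. The 3 cells all belong to WT cells 1 to 11. Of the 182 WT counts 176 came from WT cell 6, and without it too few remain for a ratio.

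Fscn2 (chr11:120361534-120368168, plus strand) was the fascin of these cells and, of the 4 members found in most cells, the one with the widest relative spread in WT cells. In single cells it ran from 0 through a median of 81.9 to 338 CPM in CKO cells, and from 0 through 47.4 to 498 CPM in WT cells. The groups overlapped: 13 of 17 CKO cells lay above the WT median, and 5 WT cells lay above the highest CKO cell. Median and sum went opposite ways, since the summed level was 100.2 CPM in CKO cells (98.8 to 102) and 119.6 CPM in WT cells (119 to 121), a log2 ratio of -0.26 (-0.28 to -0.23). The CKO cell was higher in 450 of the 816 pairs and the WT cell in 354, with 12 ties.

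The WT cells differed in whether any Fscn2 count was found, which does not show whether the RNA was absent from a cell. With at least 10 CPM were 14 of 17 CKO cells (82.4%, exact interval 56.6 to 96.2%) and 29 of 48 WT cells (60.4%, 45.3 to 74.2%). No count at all was found in 1 CKO cell and 12 WT cells. At 100 CPM or more the shares were 41.2% of CKO cells and 35.4% of WT cells. The coefficient of variation was 88.4% in CKO cells and 127% in WT cells.

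Which WT cells are used decides the direction for Fscn2. WT cells 1 to 11 were at 50.4 CPM, with a median of 0 and 5 of 11 cells with at least 10 CPM, and the log2 ratio of CKO over these was 0.99. WT cells 12 to 45 were at 159.6 CPM, with a median of 82.4 and 22 of 34 cells with at least 10 CPM, and the log2 ratio was -0.67. WT cells 46 to 48 were at 23.96 CPM, and the ratio was 2.06. Among Xist-pattern cells Fscn2 was at 104 CPM in CKO cells and 96.2 CPM in WT cells, a log2 ratio of 0.11, and over single-cell medians the ratio was 0.79. No direction is therefore given for this gene.

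**Figure D3:**
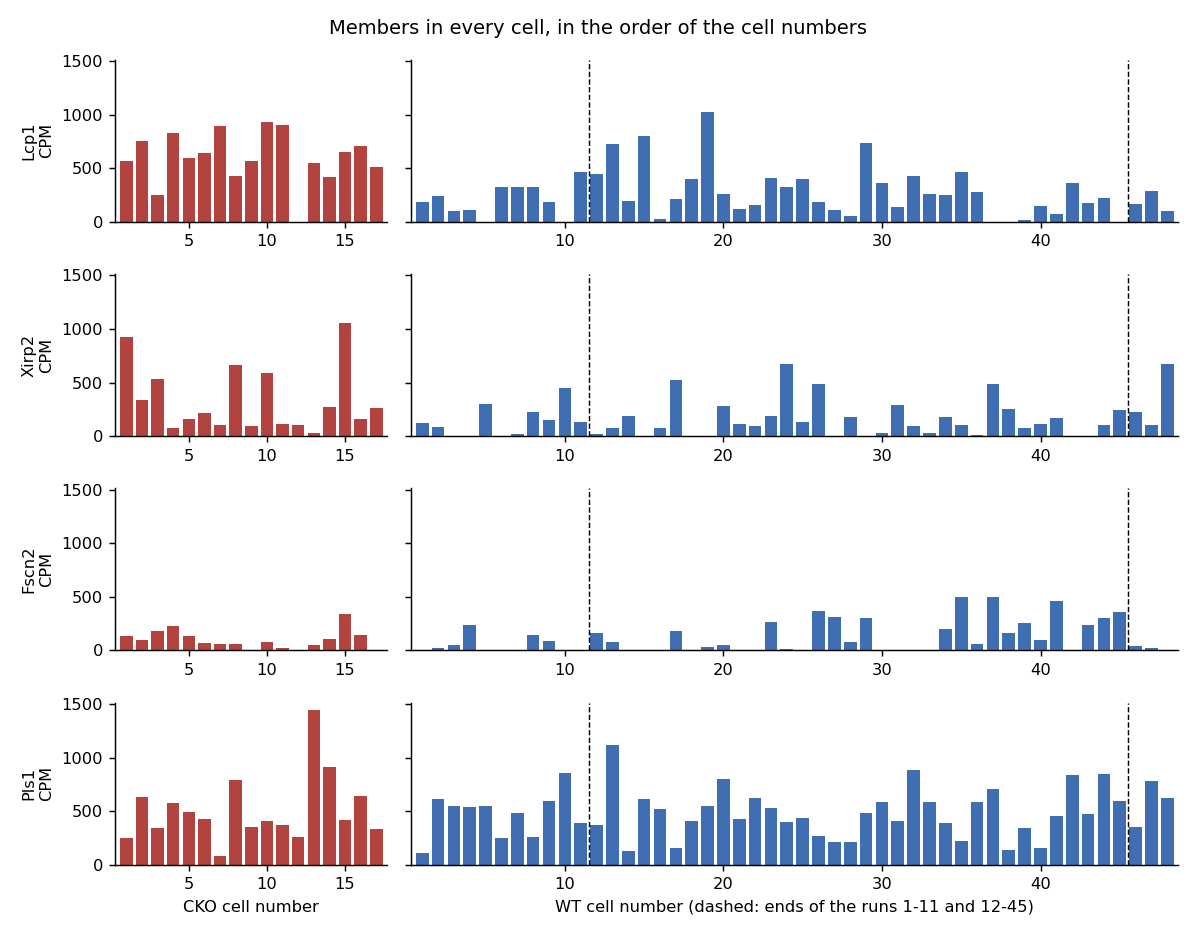
CPM of Lcp1, Xirp2, Fscn2 and Pls1 in every cell, in the order of the cell numbers, with CKO cells (red, left) and WT cells (blue, right); dashed lines end the WT runs 1 to 11 and 12 to 45. The tallest Fscn2 bars are in WT cells 12 to 45, whose summed level is 159.6 CPM, and Pls1 is present in every cell.

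Xirp2 (chr2:67446002-67526614, plus strand) was found in every CKO cell. Single cells ran from 32.8 through a median of 219 to 1057 CPM in CKO cells, and from 0 through 112 to 672 CPM in WT cells. The ranges overlapped widely, with 12 of 17 CKO cells above the WT median, 13 of 48 WT cells above the CKO median and 2 CKO cells, 15 and 1, above every WT cell. The summed level was 353 CPM in CKO cells (351 to 356) and 159.5 CPM in WT cells (158 to 161), a log2 ratio of 1.15 (1.13 to 1.16), or 2.21-fold. The CKO cell was higher in 69.9% of pairs, and 12.9% of measured genes had a ratio at least as high.

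At the low end, all 17 CKO cells had at least 10 CPM of Xirp2 (exact interval 80.5 to 100%), against 38 of 48 WT cells (79.2%, 65.01 to 89.5%), of which the other 10 comprised 7 with no count and 3 with a low one. CKO cells 15 and 1, at 1057 and 922 CPM, carried much of the sum. Without CKO cell 1 the log2 ratio was 0.95 and without CKO cell 15 it was 0.97, both short of 2-fold, and over medians of cells it was also 0.97. Among Xist-pattern cells Xirp2 was at 372 CPM in CKO cells and 134 CPM in WT cells, a log2 ratio of 1.48. Against WT cells 1 to 11 and 12 to 45 it was 1.34 and 1.23, but against the 3 WT cells 46 to 48, at 329 CPM, it was 0.10.

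Because Xirp2 is also a striated muscle gene, 7 skeletal muscle genes were read beside it. They summed to 0, 1.56 and 187 CPM at the lowest, median and highest CKO cell, and to 0, 0.158 and 250 CPM in WT cells. Ckm, the muscle creatine kinase, and Tnni2 had no count in CKO cells and counts in 1 of 48 WT cells each. Mylpf was at 6.98 CPM in CKO cells and 13.8 CPM in WT cells, from 5 of 17 and 20 of 48 cells. Tnnt3 was at 8.49 and 4.43 CPM, from 2 and 6 cells, and Acta1 at 2.24 and 0.776 CPM, from 1 and 3 cells. Des had 1 count, in a CKO cell. At least 5 CPM was reached by 3 of the 7 genes in CKO cells and 1 in WT cells. Ttn, the giant sarcomere protein titin, was at 10.3 CPM in CKO cells and 4.53 CPM in WT cells, from 4 of 17 and 8 of 48 cells. Xirp2 also went with the number of genes seen in a cell, with a Spearman correlation of 0.65 over the 17 CKO cells and 0.18 over the 48 WT cells, given as a description. Its exons share 168 bases with Gm13601 on the opposite strand, which had 0 counts in either group.

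Compared against each run of WT cells or between Xist-pattern cells, the number of members at least 2-fold higher in CKO cells stayed at 3, but not always the same ones. Lcp1 and Pls3 were past 2-fold in all of these. Xirp2 was the third in Xist-pattern cells, where 24.4% of measured genes were higher by that much, against WT cells 1 to 11 (22.2%) and against WT cells 12 to 45 (17%). Against WT cells 46 to 48, where 33.9% of measured genes were that much higher, it was Fscn2. These shares come from different numbers of cells, and Pls3 is again a bound from 2 cells.

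**Figure D4:**
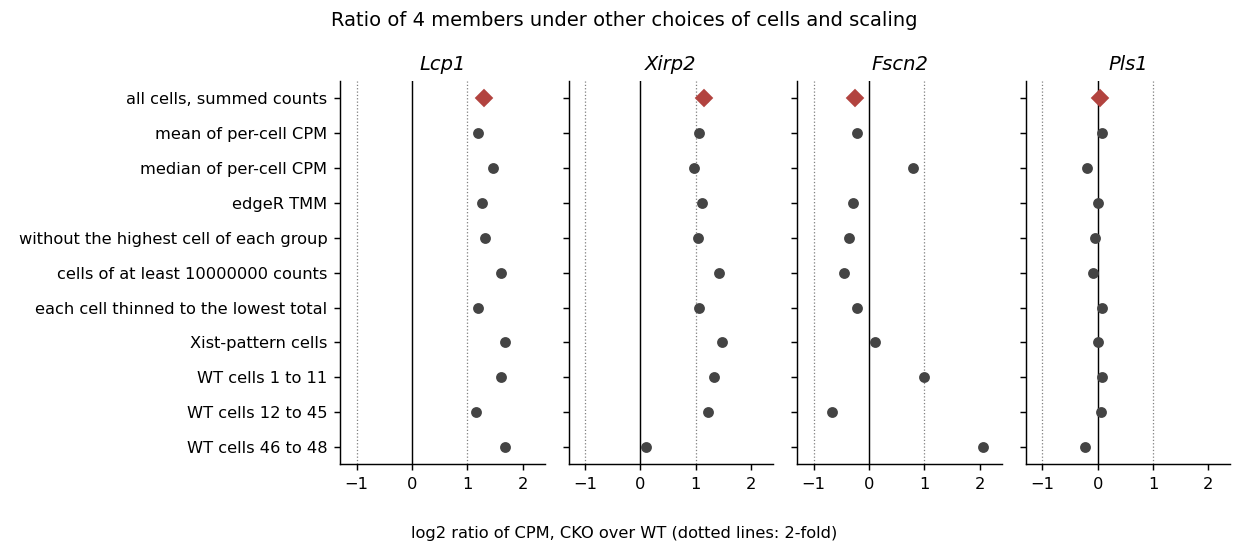
Log2 ratio of CKO over WT for Lcp1, Xirp2, Fscn2 and Pls1 under the summed counts of all cells (red diamonds) and 10 other choices of cells or scaling (grey points); dotted lines mark 2-fold. Lcp1 stays between 1.15 and 1.69, Xirp2 drops to 0.10 against WT cells 46 to 48, and Fscn2 crosses 0.

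The members were also counted together, cell by cell. At least 10 CPM of each of Lcp1, Pls1, Fscn2 and Xirp2 was present in 14 of 17 CKO cells (82.4%, exact interval 56.6 to 96.2%) and 20 of 48 WT cells (41.7%, 27.6 to 56.8%). No cell of either group had fewer than 2 of the 4. In WT cells 22 had 3 of the 4 and 6 had 2, and most of the absences were of Fscn2, missing at this level in 19, and of Xirp2, missing in 10. The difference in mean level of a member and the share of cells over a fixed level are not independent, and neither was tested.

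Across cells the members did not follow one another closely. The closest relation in WT cells was an inverse one between Lcp1 and Xirp2, with a Spearman correlation of -0.09 over the 17 CKO cells, -0.43 over the 48 WT cells and -0.47 within WT cells 12 to 45. The other pairs in WT cells lay between -0.17 and 0.12. In CKO cells the closest was Fscn2 with Xirp2 at 0.39, against 0.12 in WT cells. Cells share differences in depth. Lcp1 had a correlation of -0.04 with the total count of a CKO cell, -0.31 with that of a WT cell and -0.32 within WT cells 12 to 45. Fscn2 had 0.06 with the total in CKO cells, 0.10 in WT cells and 0.48 within WT cells 12 to 45. Against Slc26a5, the prestin gene, Fscn2 had 0.56 in CKO cells, -0.27 in WT cells and -0.04 within WT cells 12 to 45. Lcp1 had 0.28 in CKO cells, -0.06 in WT cells and 0.05 within WT cells 12 to 45.

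For each of the 4, the genes with the most similar pattern over the 48 WT cells were taken from 5413 genes with at least 20 CPM and a count in at least 50% of WT cells. The pattern nearest to Fscn2 was that of Cldn9, a claudin of the tight junctions around hair cells, with a Spearman correlation of 0.39 in CKO cells and 0.65 in WT cells. Narf, a nuclear prelamin A binding protein, had 0.16 in CKO and 0.54 in WT cells, and Papss1, which makes the sulfate donor of the cell, 0.14 in CKO and 0.52 in WT cells. Nearest to Xirp2 were Olfm1, a secreted olfactomedin (0.22 in CKO and 0.56 in WT cells), and the tetraspanin Tspan3 (0.86 in CKO and 0.55 in WT cells). By rank Tspan3 was thus close to Xirp2 in both groups, although it was taken from WT cells alone. Its Pearson correlation of log2(CPM + 1) with Xirp2 was 0.34 over WT cells. Xirp2 itself had a Spearman correlation of 0.65 with the number of genes in a CKO cell. Whether that number links Xirp2 and Tspan3 was not tested.

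The genes nearest to Lcp1 in WT cells were Pmm1, a phosphomannomutase, and Ube2d2a, a ubiquitin-conjugating enzyme. Their correlations were -0.04 and -0.08 over CKO cells, and both were 0.53 over WT cells. Those nearest to Pls1 were the myosin light chain Myl6, the lipid phosphatase Mtmr1 and Whamm, an activator of branched actin, at 0.13, -0.16 and 0.45 in CKO cells and 0.44, 0.44 and 0.43 in WT cells. Ranked by the Pearson correlation of log2(CPM + 1) instead, 0 of the first 3 genes for Lcp1, 2 for Pls1, 1 for Fscn2 and 1 for Xirp2 were still among the first 3, so the lists depend on the measure.

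A list of 27 other actin bundling and cross-linking genes set these members in their surroundings. A count was found for 25 of them, and 15 were measured. None of the 15 was higher by at least 2-fold in CKO cells and 2 were lower by that much, where all measured genes had 15.1% higher and 14.5% lower. By sign alone 7 lay above 0 and 8 below it. Their median log2 ratio was -0.14, and that of all measured genes was 0.01. Espn, the espin that bundles actin in stereocilia, had the highest level at 1120.1 CPM in CKO cells and 972 CPM in WT cells, a log2 ratio of 0.21. Triobp, which packs the actin of stereocilia rootlets, was at 361 CPM in CKO cells and 522 CPM in WT cells, a log2 ratio of -0.53.

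Actn4, an alpha-actinin, was at 460.4 CPM in CKO cells and 507 CPM in WT cells, and Espnl, a relative of espin, at 351 CPM in CKO cells and 411 CPM in WT cells, with log2 ratios of -0.14 and -0.23. The 2 past 2-fold were found in few cells. Actn3, the alpha-actinin of fast muscle fibres, was at 1.56 CPM in CKO cells and 11.5 CPM in WT cells, a log2 ratio of -2.89, with counts in 1 of 17 and 6 of 48 cells. Flna, a filamin that links crossing filaments, was at 7.09 CPM in CKO cells and 27.1 CPM in WT cells, a log2 ratio of -1.93, with counts in 6 of 17 and 19 of 48 cells. Of the 816 pairs, the CKO cell was higher in 46 for Actn3 and 214 for Flna, and the WT cell in 98 and 283. The other 672 and 319 pairs were ties, with no count in either cell. The nearest relatives of the members outside the list of 6 were scarce: Fscn3 had no count, and Xirp1 had 1 count, in a CKO cell.

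**Figure D5:**
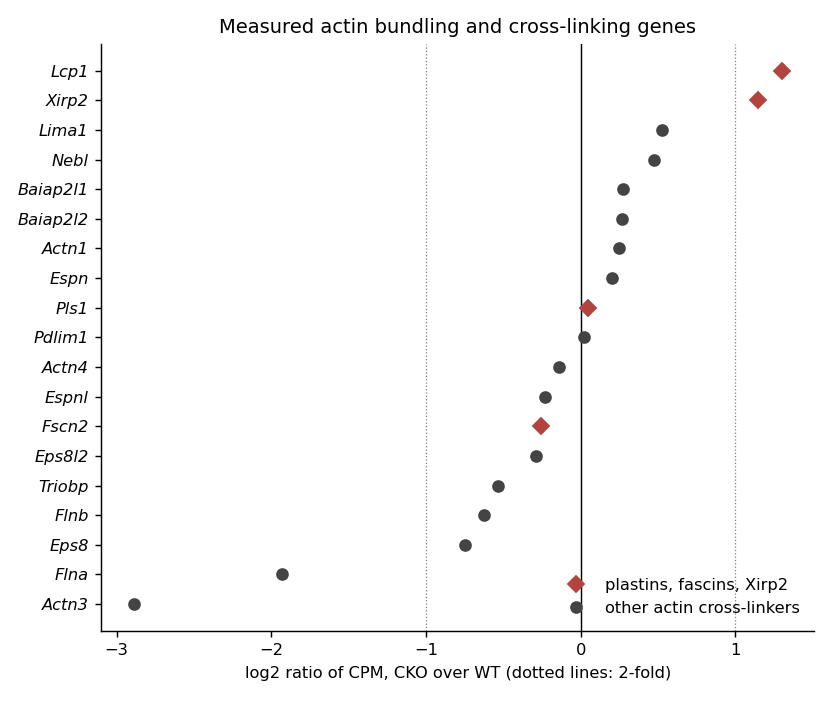
Log2 ratio of CKO over WT for the measured members (red diamonds) and the 15 measured genes of the list of other actin cross-linkers (grey points), summed over all cells; dotted lines mark 2-fold. Lcp1 and Xirp2 lie right of the 2-fold line and Flna and Actn3 left of it; Pls3, whose ratio is only a bound, is left out.

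Set per kilobase of coding transcript against all genes with a count and a coding transcript, the members spread widely. Lcp1 ranked 506 of 12649 such genes in CKO cells and 1224 of 14749 in WT cells, and Pls1 ranked 627 in CKO cells and 632 in WT cells. Fscn2, with 58.5 CPM per kb in CKO cells and 69.8 CPM per kb in WT cells, ranked 1340 in CKO cells and 1146 in WT cells. Xirp2 has a long transcript of 11.979 kb and stood at 29.5 CPM per kb in CKO cells (rank 2329) and 13.3 CPM per kb in WT cells (rank 4047). In order of level per length the members ran Lcp1, Pls1, Fscn2, Xirp2, Pls3 in CKO cells and Pls1, Fscn2, Lcp1, Xirp2, Fscn1 in WT cells. Fscn2 and Lcp1 in WT cells, at 69.8 and 64.0 CPM per kb, differ by less than the spread between cells, as do Lcp1 and Pls1 in CKO cells, at 158 and 135 CPM per kb. The first place in CKO cells also turned with the length used. With the union of exons Pls1 was at 129 and Lcp1 at 63.8 CPM per kb in CKO cells, while the order in WT cells stayed.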

How the data were processed

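Full-length cDNA of 65 single cells was made with a Smart-Seq HT kit without molecular identifiers, per the labels' protocols, and the deposited table holds raw counts for each gene and cell. The submitters' processing notes name featureCounts 2.0.1, StringTie 2.2.1, HISAT2 2.2.1 and mm10. Annotation, strand setting and filters were not given in the sources used here, so reads of overlapping opposite-strand genes cannot be told apart. The shared protocol text names inner hair cells and iOHCs, but the cells were taken as OHCs, as in titles and design. No column matched another, no cell was left out and no doublet caller was run, since cells were picked singly.

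From these counts, CPM was taken per cell and over the summed counts of a group. Log2 ratios (CKO over WT) have an exact interval conditional on the summed count (Clopper-Pearson), sums have exact Poisson and shares exact binomial intervals, all at 95%. Without molecular identifiers, reads are copies and not independent molecules, so the intervals of ratios and sums are too narrow. A group with no count was set to 3 counts and the ratio given as a bound; no ratio was taken where the other group lay at or under that floor. In pairs of 1 CKO and 1 WT cell, ties counted as 0.5. The Xist pattern means 10 or more Xist counts with under 10 summed over Eif2s3y, Kdm5d, Uty and Ddx3y; the Y pattern is the reverse. Of the table's symbols, 53292 (96.4%) are in GENCODE M21 (GRCm38), used for positions and lengths. Ratios were tested on simulated counts first. Python 3.11.15, pandas 2.3.3, scipy 1.17.1 and matplotlib 3.10.9 were used, and edgeR 4.0.16 and DESeq2 1.42.0 for scaling factors alone.

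The members, the list of 27 other actin genes, the marker lists (OHC, inner hair cell, hair cell, leukocyte and macrophage, supporting cell, fibroblast, neuron, skeletal muscle) and the splits of cells were chosen with earlier results of these data known. The text names the 6 members, the measured genes of the list past 2-fold and its 4 with the highest CPM, and the 3 genes most similar to each member with a count in at least 50% of WT cells, of which some are not reported here; Fscn3, Xirp1 and Flnc are named beside these after their values were seen. Alternatives were other summaries, scalings, floors and choices of cells, each cell left out in turn, and, chosen after seeing the data, the union of exons as length.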

Additional observations from a re-analysis of the deposited data

How the results depend on the processing

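Of the counts past 2-fold, 3 members higher in CKO cells became 1 with medians of single cells and ranged from 1 to 3 when 1 cell was left out: without CKO cell 1 it was 1 (Lcp1) and without CKO cell 15 it was 2. The 0 members lower became 1 with no floor on CPM. It was Fscn1, at 0.332 CPM in WT cells, where 176 of 182 counts came from WT cell 6. The 0 other actin genes higher became 1 with a total without mitochondrial and ribosomal protein genes, with cells of at least 10000000 counts, with cells of at least 6000 genes, and against WT cells 1 to 11 or 12 to 45; it was 2 among Xist-pattern cells, 3 against WT cells 46 to 48, 3 with no floor, and 0 to 1 when 1 cell was left out, with Flnc at 4.99 CPM in CKO cells and 0.361 CPM in WT cells lying just under the floor of 5 CPM. The 2 other genes lower became 0 with medians, 1 against WT cells 12 to 45, 1 with a floor of 20 CPM and 4 with no floor. Over all cells 15.1% of measured genes were higher and 14.5% lower by at least 2-fold. The share higher was also taken for Xist-pattern cells and against each WT run, as given above, and for no other setting. Nothing is therefore read from these counts. The cause of the changes was not tested.

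TMM and median-of-ratios factors moved every log2 ratio by -0.03. With a total without mitochondrial and ribosomal protein genes the log2 ratio was 1.27 for Lcp1, 1.12 for Xirp2, -0.29 for Fscn2 and 0.01 for Pls1. The Xirp2 ratio was past 2-fold in 11 of 13 settings and with 63 of 65 cells left out in turn; Fscn2 turned sign in 4 of 13, spanning -0.67 to 2.06. No paired analysis was possible because each genotype is 1 sample and the cell numbers pair nothing. With 17 CKO cells, a gene with no count in any allows a share of cells with a count of up to 19.5%, taking the cells as independent draws; it does not limit the share of cells that express the gene.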

Other observations

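The remaining marker lists were read in the same cells. Of 4 general hair cell genes, Pou4f3, a factor that keeps hair cells alive, was at 811 CPM in CKO cells and 973 CPM in WT cells, Myo7a, a stereocilia myosin, at 199 CPM in CKO cells and 247 CPM in WT cells, and Gfi1, a hair cell repressor, at 136 CPM in CKO cells and 169.6 CPM in WT cells. Atoh1, the gene whose control drives Cre, had 2 counts in 1 CKO cell and 2732 counts in 5 WT cells. Of 3 inner hair cell genes, Otof, the calcium sensor of the synapse, was at 81.6 CPM in CKO cells and 170.1 CPM in WT cells, and Slc17a8, the glutamate transporter of inner hair cells, at 17.1 CPM in CKO cells and 12.1 CPM in WT cells, while Tbx2 had 5 counts in CKO cells and 1 in WT cells.

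The 5 neuron genes summed to a median of 519 CPM in CKO cells and 463 CPM in WT cells, mostly from Map2 (317 CPM in CKO and 243 CPM in WT cells) and Snap25 (171 CPM in CKO and 186 CPM in WT cells), while Tubb3 had 4 counts in CKO cells and 3 in WT cells. The 6 fibroblast genes summed to a median of 0.777 CPM in CKO cells and 21.1 CPM in WT cells. The highest single cells reached 375 CPM in CKO and 699.9 CPM in WT. Pdgfra was at 47.1 CPM in CKO and 47.7 CPM in WT cells, with counts in 10 of 17 and 29 of 48 cells. Col1a1 was at 8.44 CPM in CKO and 12.6 CPM in WT cells, and Lum at 0.01 and 16.5 CPM. Dcn was at 0.02 and 0.03 CPM, Col1a2 had 0 and 2 counts, and Col3a1 had no count in either group.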
